A study of Rattus norvegicus with 6 samples.

Results

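The integrated stress response genes examined here are 10 genes that were chosen by symbol: Atf4, Atf5, Ddit3, Trib3, Chac1, Asns, Sesn2, Ppp1r15a, Psat1 and Phgdh. Each was found once among the 34001 genes of the deposited table, and all 10 passed the filter of a mean of at least 1 TPM that left 11477 genes for testing. RNA had been sequenced from the pancreas of 6 rats of the outbred Sprague-Dawley strain, 2 in each of 3 groups, and the labels give neither sex nor age. In the TP+hucMSC-Exs group the gland was crushed with an impactor (3 cm2, 10 kg), a model of traumatic pancreatitis (TP), and the rats received exosomes of human umbilical cord mesenchymal stem cells into the tail vein at 10 μg per 100 g of body weight. In the TP group the gland was crushed in the same way and 1 ml of saline was given. In the Control group the abdomen was opened, the pancreas was only turned with swabs and 1 ml of saline was given, and tissue of all groups was taken after 24 h. A further group that received the stem cells themselves was not analysed here.

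The integrated stress response is the pathway by which several kinases sense stress (PERK for unfolded protein in the endoplasmic reticulum, GCN2 for lack of amino acids, PKR for double-stranded RNA, HRI for lack of haem), phosphorylate the translation factor eIF2 and thereby slow protein synthesis. Translation of the mRNA of the transcription factor ATF4 increases under these conditions, and ATF4 then induces genes for amino acid synthesis and uptake, for redox balance and, under lasting stress, for cell death. The acinar cell of the pancreas makes large amounts of secreted protein and depends on PERK, and much of the control of Atf4, Atf5, Ddit3 and Ppp1r15a is at translation, which an mRNA level does not show.

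Values are TPM, relative transcript abundances that take gene length into account and sum alike for all libraries, so depth is unknown and a gene's level is a share of all transcripts. Acinar digestive enzymes took 67.1% and 61.4% of TPM in the TP+hucMSC-Exs libraries, 79.6% and 21.3% in TP replicates 1 and 2, and 85.9% and 82.2% in the Control libraries. TP replicate 2 stood apart: it was the highest of the 6 libraries for 91.3% of the genes tested, and its median gene lay 3.00 log2 units above the Control mean, against 0.97 and 1.22 in the TP+hucMSC-Exs libraries and 0.00 in TP replicate 1. Transcripts of mitochondrially encoded genes took 0.850% and 0.790% of TPM in the TP+hucMSC-Exs libraries, 0.757% and 4.58% in TP replicates 1 and 2, and 0.582% and 0.928% in the Control libraries; the part of this difference in the levels of TP replicate 2 was not tested. In bulk tissue, fewer cells of a type and less RNA per cell cannot be told apart. Log2 fold changes refer to log2(TPM + 0.5), a scale that makes changes of low genes look smaller, and stand with their standard error (SE) from a limma fit over all 6 libraries, n = 2 per group.

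In limma, 0 of the 10 genes passed an adjusted p of 0.05 in any of the 3 comparisons, and 0 had an unadjusted p below 0.05, so what follows describes levels. Ddit3, Ppp1r15a, Sesn2, Atf4 and Atf5 stood higher in both TP+hucMSC-Exs libraries and in TP replicate 2 than in Control. In TP replicate 1 these genes, Atf4 apart, lay within or below the range of the Control libraries. Trib3 and Asns were highest in the 2 TP+hucMSC-Exs libraries. Chac1 was highest in the 2 Control libraries. Directions against Control depend on the scaling: under all 3 rescalings tried, the log2 fold change turned negative for Atf4, Atf5, Asns and Phgdh in TP+hucMSC-Exs, and for Atf4, Atf5, Trib3, Sesn2, Ppp1r15a, Psat1 and Phgdh in TP, and in TP+hucMSC-Exs that of Trib3 also turned under 2 of them and that of Sesn2 under 1.

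**Figure D1:**
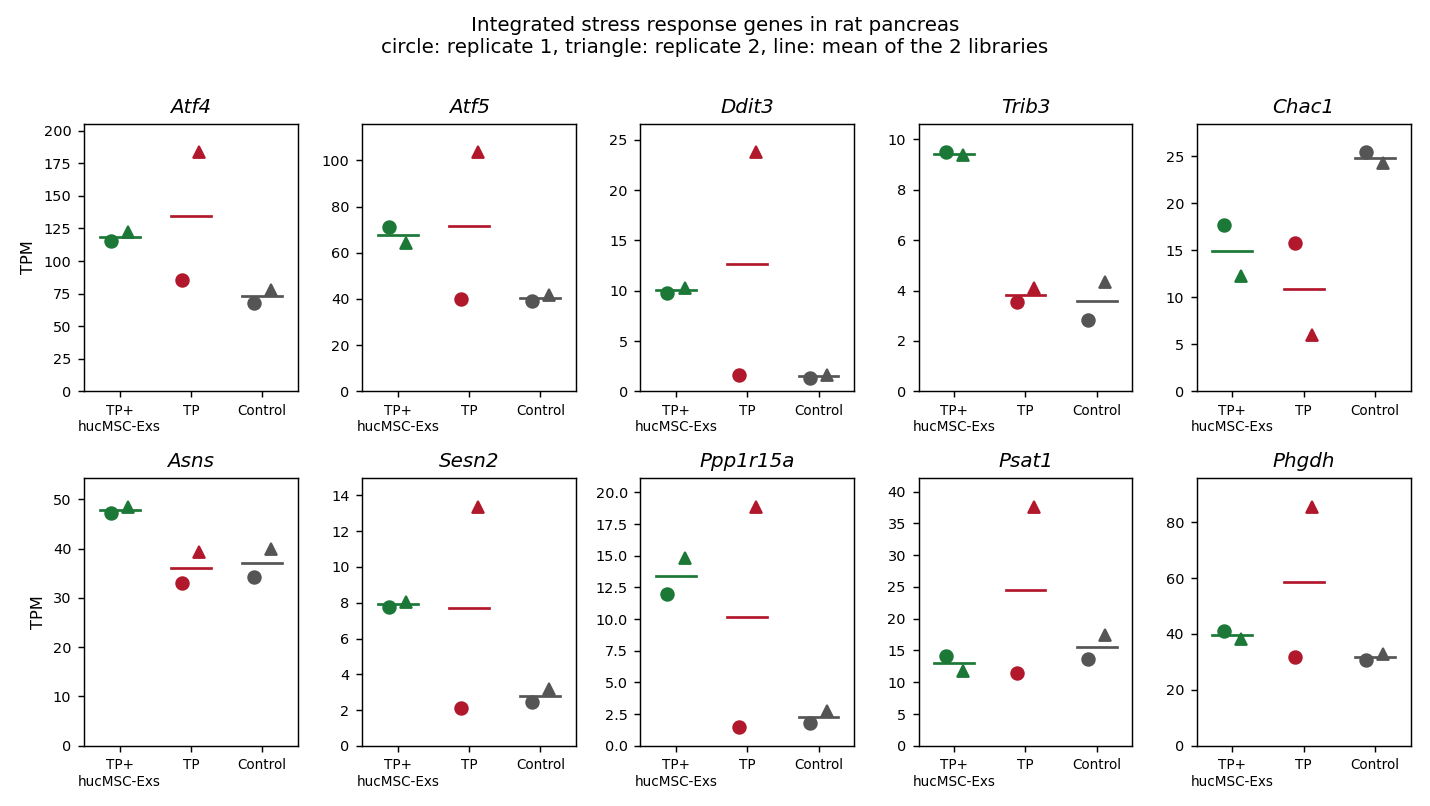
TPM (y axis, from 0, a scale per gene) of the 10 genes in each library, by group; circles are replicate 1, triangles replicate 2 and lines the mean of 2 libraries. The 2 TP libraries lie far apart for Ddit3, Ppp1r15a and Sesn2, whereas Trib3 stands at 9.48 and 9.37 TPM in the TP+hucMSC-Exs group and at or below 4.35 TPM in the other 4 libraries.

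Atf4, the central transcription factor of the pathway, was the most abundant of the 10, averaging 109 TPM across all groups. It stood at 115 and 122 TPM in the TP+hucMSC-Exs group, at 85.4 and 183 TPM in the TP group and at 68.05 and 77.9 TPM in the Control group. Every library of the 2 injured groups was above both Control libraries, and the TP libraries enclosed the TP+hucMSC-Exs ones. Its log2 fold change was 0.70 ± 1.25 (SE; limma adjusted p = 0.800) for TP+hucMSC-Exs against Control and 0.78 ± 1.25 (SE; limma adjusted p = 0.619) for TP against Control. Both signs turned when TPM were rescaled without acinar enzymes, by median of ratios or by quantiles, to between -0.41 and -0.77 for TP+hucMSC-Exs and between -0.56 and -0.96 for TP.

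Atf5, a related transcription factor that acts with ATF4 and in the mitochondrial stress response, stood at 71.1 and 64.2 TPM in the TP+hucMSC-Exs group, at 40.1 and 103 TPM in the TP group and at 39.2 and 41.9 TPM in the Control group. TP replicate 1 lay between the Control libraries, and TP replicate 2 was the highest of all. Its level was a nearly constant share of that of Atf4, 61.6% and 52.6% in the TP+hucMSC-Exs libraries, 47.0% and 56.4% in those of TP, and 57.7% and 53.8% in those of Control.

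Ddit3 encodes CHOP, the transcription factor linked to cell death under lasting stress. It stood at 9.77 and 10.3 TPM in the TP+hucMSC-Exs group, at 1.66 and 23.7 TPM in the TP group and at 1.32 and 1.66 TPM in the Control group. Both TP+hucMSC-Exs libraries were above both Control libraries, while TP replicate 1 was no higher than Control replicate 2. The log2 fold change for TP+hucMSC-Exs against Control, 2.41 ± 1.43 (SE; limma adjusted p = 0.800, unadjusted p = 0.0919), was the largest of the 10 genes, and its 95% interval ran from -0.39 to 5.21. For TP against Control it was 1.87 ± 1.43 (SE; limma adjusted p = 0.555), and it rested on TP replicate 2.

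Ppp1r15a encodes GADD34, the subunit that brings protein phosphatase 1 to eIF2 and so ends the response. It stood at 12.01 and 14.8 TPM in the TP+hucMSC-Exs group, at 1.45 and 18.9 TPM in the TP group and at 1.81 and 2.77 TPM in the Control group. TP replicate 1 was below both Control libraries, and the other 3 injured libraries were above them. Against Control, the log2 fold change in TP+hucMSC-Exs was 2.33 ± 1.43 (SE; limma adjusted p = 0.800, unadjusted p = 0.103). The 2 TP libraries differed 13.0-fold for Ppp1r15a and 14.3-fold for Ddit3, against 1.23-fold and 1.05-fold between the TP+hucMSC-Exs libraries. Its constitutive counterpart Ppp1r15b, named after its values were seen, stood at 6.51 and 6.47 TPM in the TP+hucMSC-Exs group, at 4.98 and 15.5 TPM in the TP group and at 4.20 and 7.01 TPM in the Control group.

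Sesn2, a stress-induced inhibitor of mTORC1 signalling that also senses leucine, stood at 7.78 and 8.05 TPM in the TP+hucMSC-Exs group, at 2.09 and 13.4 TPM in the TP group and at 2.44 and 3.16 TPM in the Control group. Its order of libraries was the same as that of Ppp1r15a, with TP replicate 1 lowest and TP replicate 2 highest. Its log2 fold change in TP+hucMSC-Exs against Control was 1.36 ± 1.43 (SE; limma adjusted p = 0.800).

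Trib3 encodes a pseudokinase that is induced by ATF4 and CHOP and holds their activity back, and Chac1 encodes an enzyme that degrades glutathione and is induced by ATF4. They are shown together because, among the 10, only their promoter windows held an exact match to the motif searched for the C/EBP-ATF response element. This element is the sequence at which ATF4 acts as a dimer with C/EBP proteins. Their levels also differed in order across the libraries. All 10 genes matched a promoter window of RefSeq on build GRCr8, from 250 bases before to 50 bases after the gene start. The motif searched was TGATGNAA on both strands, and 3.98% of 33469 promoters of the same length held it. An element with other letters or outside the window would be missed, so a gene without a match may still have one. In both genes it lay on the reverse strand and reads TTGCATCA in Chac1, 167 to 160 bases before the start, and TTACATCA in Trib3, 21 to 14 bases before the start. The cAMP response element TGACGTCA, a site of related factors that reads the same on both strands, was in 1.83% of promoters and in 1 of the 10, that of Ppp1r15a, 66 to 59 bases before the start. In the sequences, capitals mark the C/EBP-ATF match, 5′ to 3′ on the strand of the gene.
Chac1, chr3:126795881-126796180, plus strand: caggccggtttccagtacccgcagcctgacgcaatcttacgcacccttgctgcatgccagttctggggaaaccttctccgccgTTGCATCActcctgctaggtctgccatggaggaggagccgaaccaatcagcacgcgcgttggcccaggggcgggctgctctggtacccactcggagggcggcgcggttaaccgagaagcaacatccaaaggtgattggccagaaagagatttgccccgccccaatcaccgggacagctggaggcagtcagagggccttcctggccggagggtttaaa
Trib3, chr3:161275484-161275783, minus strand: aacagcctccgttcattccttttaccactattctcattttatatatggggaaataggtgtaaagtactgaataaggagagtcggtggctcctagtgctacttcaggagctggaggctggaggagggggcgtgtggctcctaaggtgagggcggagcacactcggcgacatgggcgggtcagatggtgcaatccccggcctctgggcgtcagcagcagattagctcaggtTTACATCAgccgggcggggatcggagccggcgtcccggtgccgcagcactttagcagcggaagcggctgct

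Trib3 stood at 9.48 and 9.37 TPM in the TP+hucMSC-Exs group, at 3.55 and 4.11 TPM in the TP group and at 2.85 and 4.35 TPM in the Control group. The 2 TP+hucMSC-Exs libraries were above the other 4, which overlapped one another. It was the gene among the 10 with the smallest difference between the TP libraries, 1.16-fold. It averaged 9.43 ± 0.08 TPM in TP+hucMSC-Exs, 3.83 ± 0.40 TPM in TP and 3.60 ± 1.06 TPM in Control (SD, n = 2 each). The log2 fold change was 1.20 ± 1.43 (SE; limma adjusted p = 1.00) for TP+hucMSC-Exs against TP and 1.30 ± 1.43 (SE; limma adjusted p = 0.800) for TP+hucMSC-Exs against Control. With TP replicate 1 left out, the first of these was 1.11, and with TP replicate 2 left out it was 1.29. Each of these values rests on 1 TP library.

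Chac1 ran the other way. It stood at 17.6 and 12.2 TPM in the TP+hucMSC-Exs group, at 15.8 and 5.98 TPM in the TP group and at 25.4 and 24.2 TPM in the Control group. All 4 libraries of injured pancreas were below both Control libraries, and TP replicate 2 was lowest. The log2 fold change was -1.30 ± 1.41 (SE; limma adjusted p = 0.555) for TP against Control and -0.74 ± 1.41 (SE; limma adjusted p = 0.800) for TP+hucMSC-Exs against Control. Of all genes tested, 0.575% had a lower log2 fold change than Chac1 in the first comparison and 1.33% in the second. With TP replicate 1 left out the first was -1.97 (limma adjusted p = 0.00354, where 93.2% of all genes were called), and with TP replicate 2 left out it was -0.64 (limma adjusted p = 1.00). The libraries with the most Chac1 were also those with the largest acinar share, 85.9% and 82.2% of TPM in Control, and the library with the least had the smallest, 21.3% in TP replicate 2; the part of the acinar share in this order was not tested. The 4 acinar transcription factors Ptf1a, Rbpjl, Bhlha15 and Nr5a2 mark the same cells. Together they summed to 107 and 101 TPM in the TP+hucMSC-Exs group, to 100.05 and 38.6 TPM in the TP group and to 70.1 and 79.2 TPM in the Control group. That sum, like Chac1, was lowest in TP replicate 2, but it was highest in the TP+hucMSC-Exs libraries. It is also a share of all transcripts, and its relation to Chac1 was not tested.

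**Figure D2:**
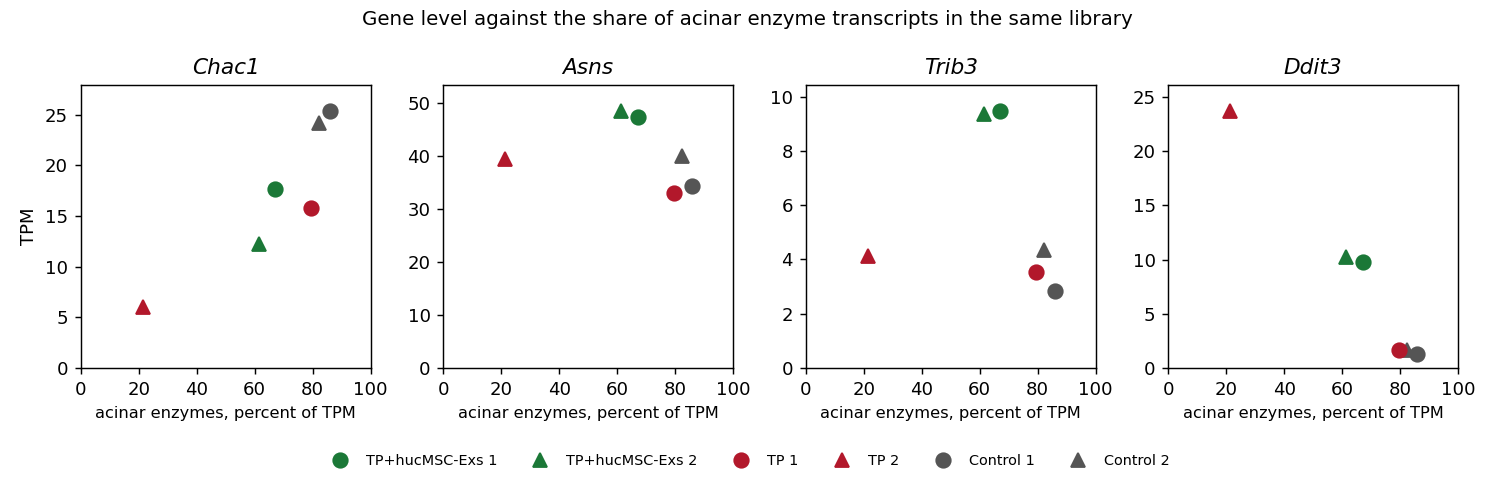
TPM of Chac1, Asns, Trib3 and Ddit3 (y axes, from 0) against the percent of TPM taken by acinar enzymes in the same library (x axis); colour gives the group, circles replicate 1 and triangles replicate 2. Chac1 runs from 5.98 TPM at 21.3% to 25.4 TPM at 85.9%, Ddit3 runs the opposite way from 23.7 to 1.32 TPM, and Trib3 and Asns have their highest points in the 2 TP+hucMSC-Exs libraries.

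Asns encodes asparagine synthetase, an ATF4 target whose transcript is abundant in exocrine pancreas. It stood at 47.3 and 48.5 TPM in the TP+hucMSC-Exs group, at 32.9 and 39.4 TPM in the TP group and at 34.3 and 39.9 TPM in the Control group. The 2 TP+hucMSC-Exs libraries were above the other 4, and the TP and Control libraries overlapped. Its log2 fold change was 0.41 ± 1.34 (SE; limma adjusted p = 1.00) for TP+hucMSC-Exs against TP and 0.37 ± 1.34 (SE; limma adjusted p = 0.861) for TP+hucMSC-Exs against Control. Against Control the sign turned under all 3 rescalings, to -0.80 without acinar enzymes, -1.09 by median of ratios and -0.92 by quantiles; against TP it stayed positive under each. Both TP+hucMSC-Exs libraries were above the other 4 for 4.65% of all genes tested, and below them for 0.392%.

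Phgdh and Psat1 encode the enzymes of the first and second steps of serine synthesis from glucose. Phgdh stood at 41.0 and 38.4 TPM in the TP+hucMSC-Exs group, at 31.6 and 85.5 TPM in the TP group and at 30.7 and 32.9 TPM in the Control group. Psat1 stood at 14.2 and 11.8 TPM in the TP+hucMSC-Exs group, at 11.4 and 37.6 TPM in the TP group and at 13.7 and 17.4 TPM in the Control group. In both, TP replicate 2 was far above any other library, and without it the Psat1 levels of the 3 groups lay between 11.4 and 17.4 TPM. Psat1 had the lowest log2 fold change of the 10 genes for TP+hucMSC-Exs against TP, -0.67 ± 1.40 (SE; limma adjusted p = 1.00). Psph, the enzyme that completes serine synthesis, was also named after its values were seen and stood at 10.1 and 8.07 TPM in the TP+hucMSC-Exs group, at 11.1 and 23.8 TPM in the TP group and at 10.04 and 10.4 TPM in the Control group.

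The counts for the 10 genes are read against those for all genes tested. For TP+hucMSC-Exs against Control, limma called 0 of the 10 genes (adjusted, 0.209% of all genes tested were called, and 2.95% had an unadjusted p below 0.05). The groups did not overlap for 9 of the 10: 8 were higher, where 86.9% of all genes were, and Chac1 was lower, where 1.63% were. A positive log2 fold change was found for 8 of the 10 and for 94.5% of all genes. For TP against Control, limma called 0 of the 10 (0.0523% of all genes, and 4.06% unadjusted). Atf4 was higher without overlap, as were 23.1% of all genes, and Chac1 was lower, as were 1.09%; 8 of the 10 had a positive log2 fold change, and 95.7% of all genes did. For TP+hucMSC-Exs against TP, limma called 0 of the 10 (0.0697% of all genes, 0.0523% higher and 0.0174% lower, and 1.32% unadjusted). Trib3 and Asns were higher without overlap, as were 5.09% of all genes, and 0 of the 10 were lower, where 1.62% of all genes were; 7 of the 10 had a positive log2 fold change, and 23.2% of all genes did. An exact permutation test of 2 libraries against 2 cannot give a two-sided p below 0.333, so it could not pass 0.05 for any gene.

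The width of the intervals limits what these comparisons can show. The standard errors of the 10 genes lay between 1.25 and 1.43, and the 95% interval of Asns for TP+hucMSC-Exs against TP, for example, ran from -2.23 to 3.04. The variance was pooled over the 3 groups, and the distance between the TP libraries entered it. With infinite prior degrees of freedom it was the value of the trend over all genes, not the spread of the gene itself. Trib3, whose TP libraries differed 1.16-fold, thus had the same SE of 1.43 as Ddit3, whose TP libraries differed 14.3-fold. When only the TP+hucMSC-Exs and Control libraries were fitted, 6 of the 10 genes were called higher (Atf4, Atf5, Ddit3, Ppp1r15a, Sesn2 and Trib3, limma adjusted p between 0.0141 for Ddit3 and 0.0323 for Atf4), beside 52.8% of all genes, 52.3% higher and 0.505% lower. The same 6 were called higher without TP replicate 1, beside 51.3% of all genes (50.8% higher, 0.522% lower), and without TP replicate 2, beside 69.3% (68.6% higher, 0.689% lower). A share of 6 in 10 near that background is no result about these genes.

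The comparisons with the TP group depended on which of its libraries was kept, and the kept library is then assumed to vary like the other groups. Without TP replicate 1, limma called 8 of the 10 for TP against Control, beside 93.2% of all genes (91.5% higher, 1.73% lower): Ddit3 (log2 fold change 3.61), Ppp1r15a (2.82), Sesn2 (2.08), Phgdh (1.41), Atf5 (1.34), Atf4 (1.33) and Psat1 (1.26) were higher and Chac1 (-1.97) was lower. Without TP replicate 2 it called 0 of the 10, beside 0.339% of all genes (0.26% higher, 0.079% lower). For TP+hucMSC-Exs against TP without TP replicate 1, Trib3 (1.11) and Chac1 (1.23) were called higher and Psat1 (-1.51), Ddit3 (-1.20) and Phgdh (-1.10) lower, beside 83.4% of all genes (3.66% higher, 79.7% lower). Without TP replicate 2, Ppp1r15a (2.83), Ddit3 (2.28), Sesn2 (1.70) and Trib3 (1.29) were called higher, beside 40.7% of all genes (40.1% higher, 0.587% lower). Ddit3 thus took opposite signs in the 2 settings. Trib3 (1.11 and 1.29) and Asns (0.28 and 0.53) were positive in both. Any gene higher without overlap between these groups must be, so this adds nothing to the lack of overlap given above. Both settings used the same TP+hucMSC-Exs and Control libraries. The share of all genes that were positive in both was not counted.

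**Figure D3:**
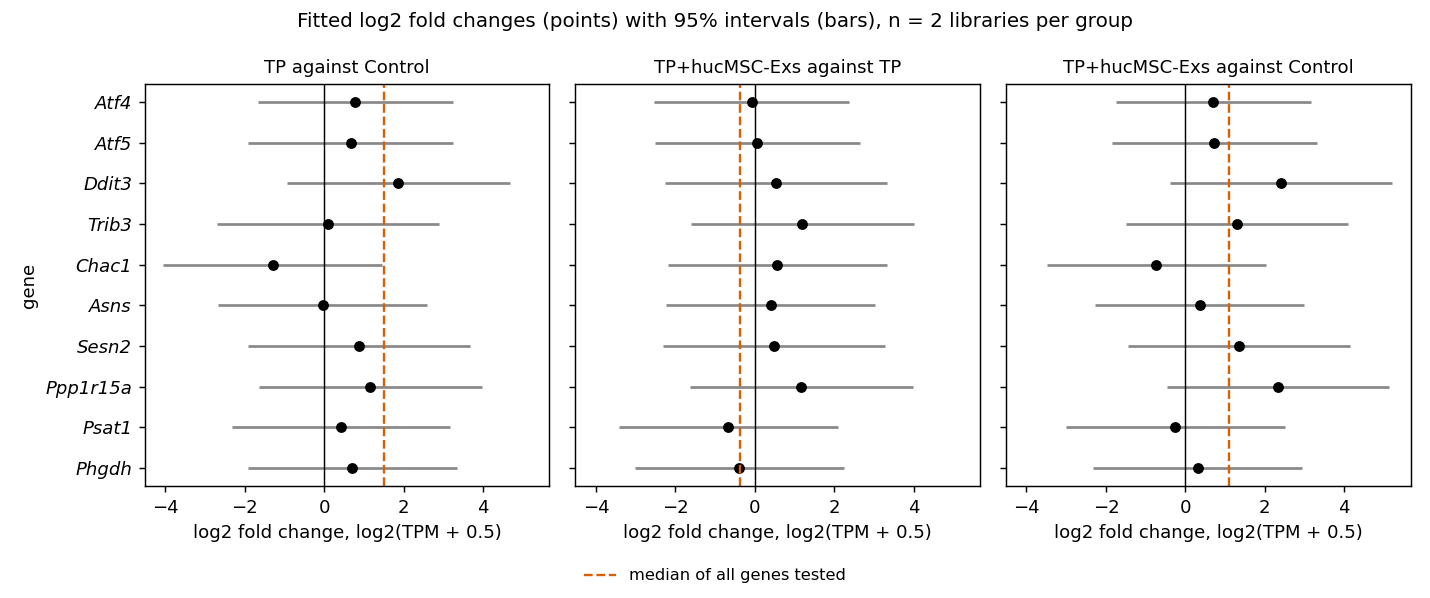
Log2 fold change of each gene on the log2(TPM + 0.5) scale (x axis; points) with its 95% interval (bars) in the 3 comparisons, n = 2 libraries per group; the dashed line is the median of all genes tested. All 30 intervals include 0, and in the comparisons with Control most points lie left of the dashed line, at 1.495 for TP and 1.09 for TP+hucMSC-Exs.

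Relative to the median gene of the comparison, the order of the 10 was the same but most lay below 0 against Control. The median log2 change of all genes tested was 1.09 for TP+hucMSC-Exs against Control, 1.495 for TP against Control and -0.38 for TP+hucMSC-Exs against TP. The 10 genes had medians of 0.72, 0.68 and 0.45 in these comparisons, which is -0.38, -0.81 and 0.82 relative to the median gene. For TP+hucMSC-Exs against Control, Ddit3 (1.31) and Ppp1r15a (1.24) stayed well above the median gene, Sesn2 (0.27) and Trib3 (0.21) lay near it, and Chac1 (-1.83) and Psat1 (-1.34) lay lowest. For TP against Control, Ddit3 (0.37) was the one gene above the median gene, and Chac1 (-2.80), Asns (-1.53) and Trib3 (-1.39) were lowest. For TP+hucMSC-Exs against TP, Trib3 (1.57), Ppp1r15a (1.55), Chac1 (0.94) and Ddit3 (0.92) were highest, and Psat1 (-0.29) and Phgdh (-0.01) were the genes below the median gene. With median-of-ratios scaling, which sets the median gene near 0, 3 of the 10 had a positive log2 fold change for TP+hucMSC-Exs against Control, 1 for TP against Control and 8 for TP+hucMSC-Exs against TP.

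**Figure D4:**
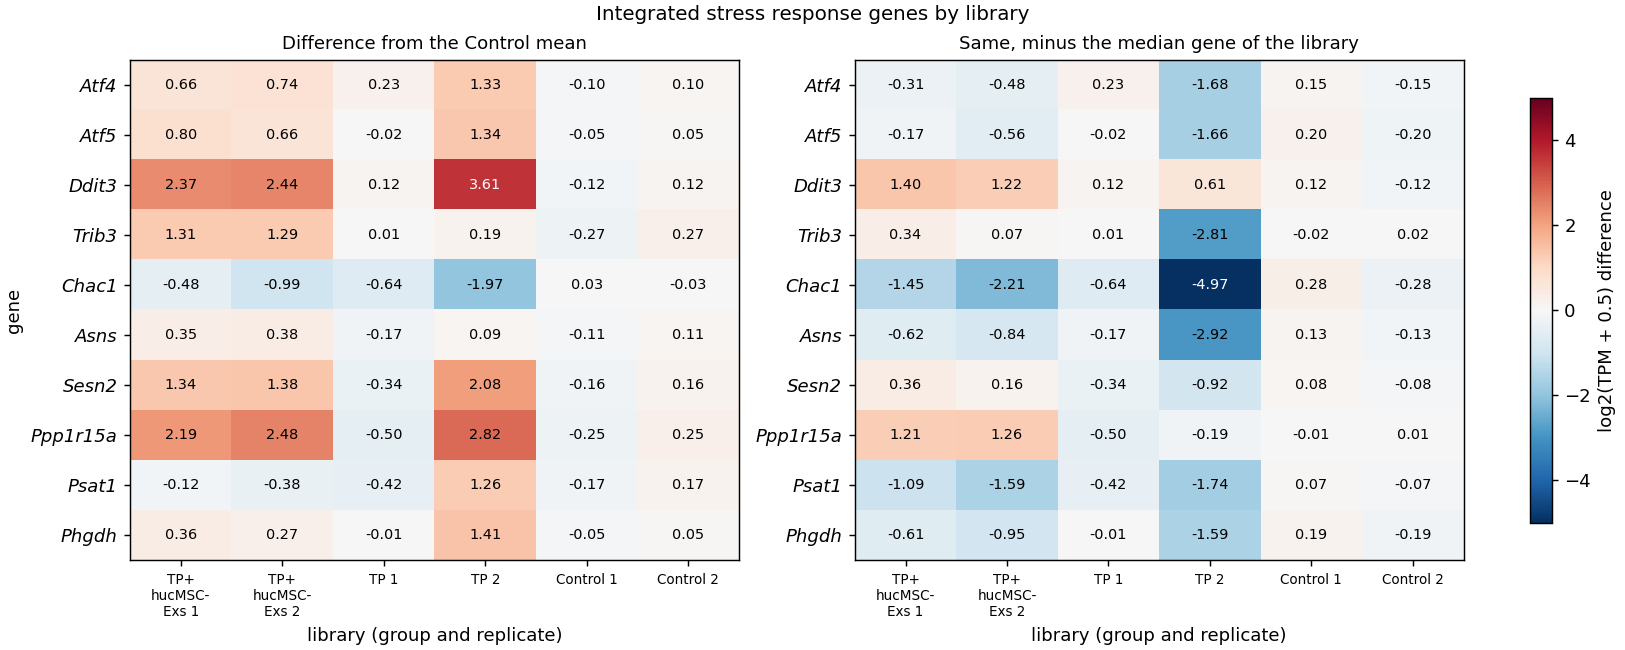
Difference of log2(TPM + 0.5) from the Control mean for each gene (rows) and library (columns), as deposited on the left and minus the median gene of the library on the right; red is higher and blue lower, and the numbers are the values. In TP replicate 2 the left panel is red for all genes but Chac1 (-1.97), and the right panel is blue for all but Ddit3 (0.61).

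Within a library the ratio of 2 genes stays the same when all TPM are multiplied by a common factor, though it can change under quantile normalization. Each gene was therefore also expressed as a percent of Atf4 TPM in the same library. Ddit3 came to 8.46% and 8.42% of Atf4 in the TP+hucMSC-Exs libraries, to 1.94% and 12.9% in the TP libraries and to 1.94% and 2.13% in the Control libraries. Ppp1r15a came to 10.4% and 12.1%, to 1.70% and 10.3%, and to 2.66% and 3.56% in the same order of groups. Sesn2 came to 6.74% and 6.59% in the TP+hucMSC-Exs libraries, to 2.45% and 7.29% in the TP libraries and to 3.59% and 4.06% in the Control libraries. These were the 3 of 9 genes whose ratio to Atf4 was higher in both TP+hucMSC-Exs libraries and in TP replicate 2 than in both Control libraries, as it was for 63.1% of all genes tested. Trib3 came to 8.21% and 7.67% in the TP+hucMSC-Exs libraries, to 4.16% and 2.24% in the TP libraries and to 4.19% and 5.59% in the Control libraries. The ratios of Trib3 and Ppp1r15a were higher in both TP+hucMSC-Exs libraries than in the other 4, as were those of 5.43% of all genes.

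Chac1 and Asns stood lower relative to Atf4 in all 4 libraries of injured pancreas than in both Control libraries, as did 1.61% of all genes tested. Chac1 came to 15.3% and 10.02% of Atf4 in the TP+hucMSC-Exs libraries, to 18.5% and 3.26% in the TP libraries and to 37.3% and 31.1% in the Control libraries. Asns came to 40.9% and 39.7% in the TP+hucMSC-Exs libraries, to 38.6% and 21.5% in the TP libraries and to 50.4% and 51.3% in the Control libraries. Psat1 came to 12.3% and 9.65% in the TP+hucMSC-Exs libraries, to 13.3% and 20.5% in the TP libraries and to 20.1% and 22.4% in the Control libraries. Phgdh came to 35.5% and 31.4%, to 37.0% and 46.6%, and to 45.0% and 42.3% in the same order of groups.

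**Figure D5:**
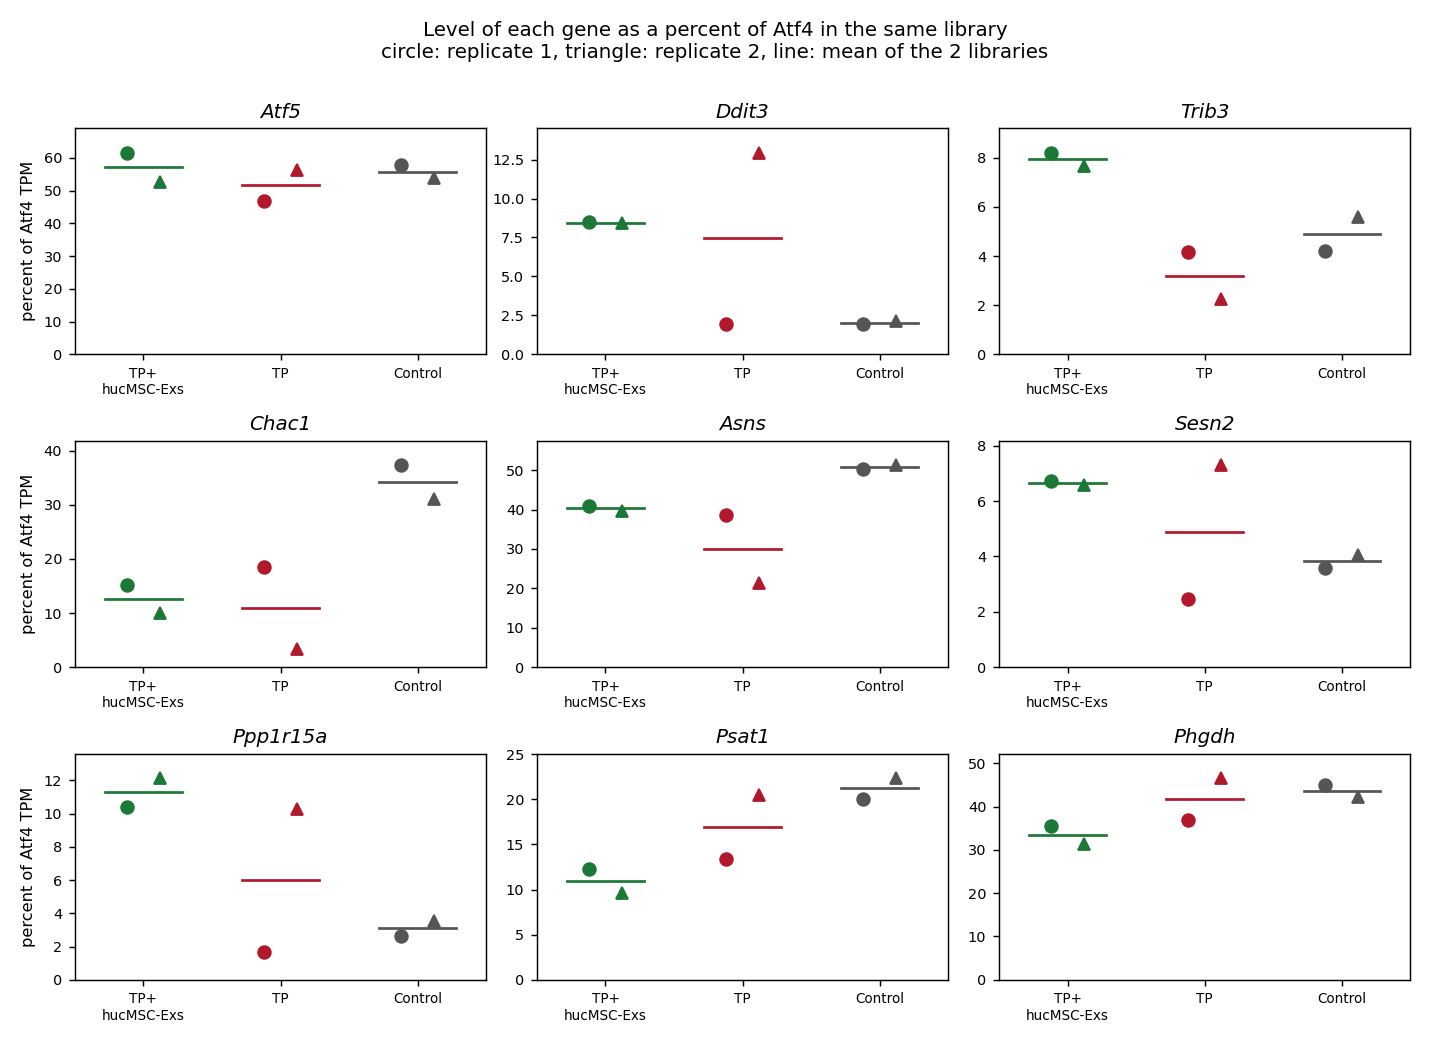
TPM of 9 genes as a percent of Atf4 TPM in the same library (y axes, from 0), by group; circles are replicate 1, triangles replicate 2 and lines the mean of 2 libraries. Chac1 lies between 3.26% and 18.5% in injured pancreas and at 31.1% and 37.3% in Control, while Atf5 lies between 47.0% and 61.6% in all 6 libraries.

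Across the 6 libraries, which share the spread of TP replicate 2, the log2 levels of Ddit3, Sesn2, Ppp1r15a and Atf5 varied together, with Pearson correlations between 0.94 for Atf5 with Ppp1r15a and 0.99 for Sesn2 with Ppp1r15a. Atf4 correlated at 0.97 with Atf5 and Ddit3, at 0.94 with Sesn2 and at 0.90 with Ppp1r15a. Asns and Trib3 varied together (0.95). Psat1 and Phgdh correlated at 0.89, but Phgdh correlated more with Atf4 and Atf5 (0.92 each). TP replicate 2 was the highest library for 91.3% of all genes tested, and correlations among all genes were not counted. Chac1 correlated negatively with each of the other 9, from -0.94 with Atf4 to -0.17 with Trib3. These values describe 6 libraries and carry no test. The genes outside the list whose profile was most like that of Atf4 were Glod4, Erap1 and Dusp22, each with a Pearson correlation of 0.999 over the 6 libraries. Dusp22, for example, stood at 8.15 and 9.99 TPM in the TP+hucMSC-Exs group, at 4.33 and 22.1 TPM in the TP group and at 2.53 and 3.52 TPM in the Control group.

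The 6 other lists held 86 genes, of the pathway and of the other arms of the response to unfolded protein. Of these, 80 were tested, and limma called 1 in any comparison, beside 0.0523% to 0.209% of all genes per comparison. That gene was Nupr1, a stress-induced nuclear protein linked to ATF4, with 4405 and 5874 TPM in the TP+hucMSC-Exs group, 114 and 122 TPM in TP, and 298 and 273 TPM in Control. It rose by 5.43 ± 1.04 (SE; limma adjusted p = 0.00105) against TP and by 4.15 ± 1.04 (SE; limma adjusted p = 0.0397) against Control. Each call was lost in 10 of 16 alternatives, with limma adjusted p from 4.75e-05 to 1.00 against TP and from 2.55e-05 to 1.00 against Control. Over these alternatives the log2 fold change of Nupr1 lay between 5.22 and 5.69 against TP and between 2.68 and 4.36 against Control. Of the other 11 tested genes of that list of ATF4-linked genes, 0 passed, and the translation inhibitor Eif4ebp1 stood at 132 and 151 TPM in the TP+hucMSC-Exs group, at 51.6 and 261 TPM in the TP group and at 57.2 and 54.7 TPM in the Control group.

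Upstream, 0 of the 14 genes for the eIF2 kinases, eIF2, its exchange factor eIF2B and regulators of eIF2 phosphorylation passed in any comparison. Their median log2 fold change was 1.21 for TP+hucMSC-Exs against Control, 1.14 for TP against Control and -0.22 for TP+hucMSC-Exs against TP, which is 0.11, -0.36 and 0.16 relative to the median of all genes tested. The most abundant were Dnajc3, an inhibitor of PERK and PKR, at 35.5 and 34.8 TPM in the TP+hucMSC-Exs group, 33.5 and 75.2 TPM in TP, and 23.04 and 31.2 TPM in Control, and the eIF2 subunit Eif2s2, at 28.7 and 34.0 TPM, 18.8 and 69.3 TPM, and 13.3 and 19.2 TPM in the same groups. Eif2ak3, which encodes PERK and was singled out after its values were seen, was the one gene of the 14 with both TP+hucMSC-Exs libraries above the other 4. It stood at 25.1 and 32.0 TPM in the TP+hucMSC-Exs group, at 9.46 and 11.3 TPM in the TP group and at 4.37 and 7.35 TPM in the Control group. Its log2 fold change against Control was 2.22 ± 1.42 (SE; limma adjusted p = 0.800).

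Downstream, 0 of 7 tested amino acid transporters passed. Slc3a2, the heavy chain shared by several transporters, stood at 152 and 148 TPM in the TP+hucMSC-Exs group, at 86.0 and 110 TPM in the TP group and at 103 and 109 TPM in the Control group. Slc7a5, its leucine-transporting partner, stood at 28.8 and 22.3 TPM, at 23.8 and 25.04 TPM and at 39.9 and 44.3 TPM in these groups, and so was highest in Control, as Chac1 was. Of 18 aminoacyl-tRNA synthetases 0 passed, and all 18 were highest in TP replicate 2. The most abundant, Sars1 for serine, stood at 68.6 and 74.1 TPM in the TP+hucMSC-Exs group, at 31.5 and 79.4 TPM in the TP group and at 27.8 and 33.4 TPM in the Control group, and Gars for glycine stood at 31.5 and 31.7 TPM, at 18.8 and 70.4 TPM and at 20.9 and 24.2 TPM. Of 13 tested genes of amino acid and one-carbon synthesis 0 passed. Glul, glutamine synthetase, stood at 56.9 and 84.95 TPM in the TP+hucMSC-Exs group, at 10.2 and 532 TPM in the TP group and at 9.08 and 18.2 TPM in the Control group. Pycr1, of proline synthesis, stood at 26.9 and 17.1 TPM, at 22.3 and 39.8 TPM and at 23.4 and 22.7 TPM.

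The other arms of the response to unfolded protein, run by IRE1 and ATF6, were examined as a comparison, and 0 of 16 genes passed. Xbp1, the transcription factor activated by IRE1, stood at 309 and 399 TPM in the TP+hucMSC-Exs group, at 134 and 185 TPM in the TP group and at 141 and 159 TPM in the Control group. Calr, a calcium-binding chaperone, stood at 158 and 186 TPM, at 74.3 and 1387 TPM and at 42.7 and 57.3 TPM. Xbp1 had both TP+hucMSC-Exs libraries above the other 4, and 15 of the 16 genes, Xbp1 being the exception, were highest in TP replicate 2.

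Over the 10 genes and the 6 other lists, 10 of 90 tested genes had both TP+hucMSC-Exs libraries above the other 4, which is 11.1%, beside 4.65% of all genes tested, and 0 had both below. Besides Trib3, Asns, Eif2ak3, Nupr1, Slc3a2 and Xbp1 they were Gdf15, a secreted stress cytokine, Slc6a9, a glycine transporter, Mthfd2, of mitochondrial one-carbon metabolism, and Aldh18a1, of proline synthesis, which were named after their values were seen. Gdf15 stood at 10.3 and 15.2 TPM in the TP+hucMSC-Exs group, at 1.53 and 8.81 TPM in the TP group and at 0.84 and 1.41 TPM in the Control group. The lists were not tested as sets, and they were chosen with earlier results of these data known. The difference between 11.1% and 4.65% is therefore only a description.

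Markers of other cells moved with the same libraries. The 7 adipocyte markers summed to 31.2 and 44.5 TPM in the TP+hucMSC-Exs group, to 19.5 and 6477 TPM in the TP group and to 18.6 and 41.1 TPM in the Control group. The 10 macrophage markers summed to 423 and 787 TPM, to 57.5 and 4840 TPM and to 19.0 and 145 TPM in these groups, and 8 fibroblast markers to 260 and 294 TPM, to 108 and 6280 TPM and to 44.2 and 105 TPM. The 9 duct markers summed to 782 and 977 TPM in the TP+hucMSC-Exs group, to 137 and 82.7 TPM in the TP group and to 88.7 and 92.1 TPM in the Control group. Macrophage, fibroblast and duct markers were detected in every library (0 of each list at 0), whereas 2 and 3 adipocyte markers were at 0 in the TP+hucMSC-Exs libraries, 2 and 0 in those of TP, and 0 and 1 in those of Control. The high values of Ddit3, Ppp1r15a, Sesn2, Atf4, Atf5, Psat1 and Phgdh in TP replicate 2 stood in the library with the most adipocyte, macrophage and fibroblast transcripts, and the high values of Trib3 and Asns in the 2 libraries with the most duct transcripts; the part of other cells in these levels was not tested.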

How the data were processed

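RNA was extracted from rat pancreas with a column kit and made into libraries with a SMARTER mRNA kit, per the labels' protocols. The authors deposited gene-level TPM for 6 libraries, with no counts, so depth is unknown and no counting error can be given. The aligner and quantifier are not given in the sources. Mouse builds (GRCm38, mm10) appear in the submitters' processing notes, although 32883 of 34001 identifiers are rat Ensembl ones. The deposited group means were not tested. TP columns, whose names hold a number that no label explains, were assigned by group name and replicate number. The libraries come from 6 rats, and p-values measure only the spread between these libraries. In the main fit that spread is a trend over all genes tested, not the spread of each gene.

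The 10 genes and the gene lists were chosen with earlier results of these data known. Genes averaging at least 1 TPM were fitted as log2(TPM + 0.5) in 1 model over 6 libraries with limma 3.58.1 (R 4.3.3; variance trend, Benjamini-Hochberg over 11477 genes, threshold 0.05); 3 residual degrees of freedom remained, and the prior degrees of freedom were infinite. The fit was also run on simulated data with independent errors for each gene. That simulation held no library that shifted most genes together, as TP replicate 2 did, so it does not test the fit under such a shift. Named genes were the 10, the called and the 2 most abundant genes of each other list, and the 3 most like Atf4; others are marked. Symbols absent from the table were matched through RefSeq synonyms (12 synthetases and the acinar enzyme gene Prss3). Alternatives were other pseudocounts (0.1 or 1), no filter or at least 5 TPM, no trend, TPM rescaled without acinar enzymes, median-of-ratios and quantile scaling, only the groups compared, a replicate block, and leaving out each library.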

Additional observations from a re-analysis of the deposited data

How the results depend on the processing

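No gene of the 10 was called in any alternative that kept all libraries in a pooled fit. In TP+hucMSC-Exs against Control, 6 were called with only the groups compared. Leaving out 1 library called 0 to 8 of the 10 for TP against Control, 0 to 5 for TP+hucMSC-Exs against TP and 0 to 6 for TP+hucMSC-Exs against Control; the high counts all came from leaving out a TP library, which takes the distance between the TP libraries out of the variance.

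Over all genes, limma called 6 for TP against Control, and 14 with a pseudocount of 0.1, 2 rescaled without acinar enzymes, 10 with the replicate block and 0 with no filter, median-of-ratios scaling, quantile normalization or only the groups compared (160, 671, 642 and 85 at an unadjusted p below 0.05). It called 8 for TP+hucMSC-Exs against TP, and 2 with median-of-ratios scaling, 1 with only the groups compared, 22 with the replicate block and 0 without the filter, rescaled or quantile normalized (315, 347 and 983 unadjusted). It called 24 for TP+hucMSC-Exs against Control, and 12 with a pseudocount of 1, 5 rescaled, 2 with median-of-ratios scaling, 6056 with only the groups compared and 0 without the filter or quantile normalized (368 and 1100 unadjusted); the replicate block gave 35. With the replicate block 0 of the 10 genes were called in each comparison. Leaving out 1 library gave 0 to 11064 genes for TP against Control, 0 to 9893 for TP+hucMSC-Exs against TP and 1 to 6135 for TP+hucMSC-Exs against Control. The deviations of same-numbered libraries from their group means correlated at 0.279 for TP with Control, 0.135 for TP+hucMSC-Exs with TP and 0.0804 for TP+hucMSC-Exs with Control. With 2 libraries per group these values cannot decide whether the numbers pair the rats, and the labels do not say.

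Of 300 log2 fold changes of the 10 genes under the other settings, 40 turned, all under the 3 rescalings, with limma adjusted p no smaller than 0.617. Rescaled without acinar enzymes, TP against Control turned for Ppp1r15a (-0.10), Sesn2 (-0.40), Atf4 (-0.56), Phgdh (-0.63), Atf5 (-0.67), Psat1 (-0.91) and Trib3 (-1.17), TP+hucMSC-Exs against Control for Atf5 (-0.43), Atf4 (-0.46), Asns (-0.80) and Phgdh (-0.85), and TP+hucMSC-Exs against TP for Atf4 (0.0932). With median-of-ratios scaling the values were -0.46, -0.73, -0.96, -1.02, -1.07, -1.28 and -1.31 for the same 7 in TP against Control, -0.73, -0.77, -1.09 and -1.14 for the same 4 and -0.0503 for Trib3 in TP+hucMSC-Exs against Control, and 0.19 for Atf4 in TP+hucMSC-Exs against TP. Quantile normalized they were -0.46, -0.73, -0.93, -1.04, -1.04, -1.26 and -1.41 for the 7, -0.45, -0.41, -0.92 and -0.99 for the 4, -0.0872 for Trib3 and -0.00486 for Sesn2, and 0.51 for Atf4 and 0.0477 for Phgdh. Ddit3 and Chac1 kept their sign in all 3 comparisons under these rescalings.

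Leaving out 1 library turned some log2 fold changes. For TP against Control the ranges were -0.17 to 0.0873 for Asns, -0.0152 to 1.34 for Atf5, -0.00673 to 1.41 for Phgdh, -0.50 to 2.82 for Ppp1r15a, -0.42 to 1.26 for Psat1, -0.34 to 2.08 for Sesn2 and -0.17 to 0.37 for Trib3. For TP+hucMSC-Exs against TP they were -0.63 to 0.47 for Atf4, -0.61 to 0.75 for Atf5, -0.10 to 1.23 for Chac1, -1.20 to 2.28 for Ddit3, -1.10 to 0.32 for Phgdh, -0.48 to 2.83 for Ppp1r15a, -1.51 to 0.17 for Psat1 and -0.72 to 1.70 for Sesn2. No sign turned for TP+hucMSC-Exs against Control.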
